A study of Mus musculus with 8 samples.

Results

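The cells described here were the gut endoderm of chimaeric mouse embryos at E8.5, chosen cell by cell from transcript counts. A cell was a member when it had at least 1 unique molecular identifier (UMI) of Epcam, at least 1 of Foxa1 and at least 1 in any of Foxa2, Sox17, Pyy and Trh. It also had to lack T, the marker of streak and notochord, and to show no more than 2 of the yolk sac endoderm genes Apoa4, Cubn, Amn, Apob and Afp. The rule picked 880 of the 37211 kept E8.5 cells, 296 of them Tet-TKO and 584 WT host, out of 49866 kept cells in all 8 libraries of the series.

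The libraries came from 10x Genomics 3′ single-cell RNA-seq of pooled, dissociated chimaeras, in which ES cells lacking all 3 TET dioxygenases had been injected into blastocysts. The ES cells carried an H2B-tdTomato label, and sorting on it gave 4 tdTomato+ libraries of Tet-TKO cells (C57BL/6J-129Sv background) and 2 tdTomato- libraries of WT host cells (C57BL/6J) at E8.5. Strain and genotype went together in every library and cannot be told apart, and the Tet-TKO cells come from a single ES line. No library of this series held WT cells descended from ES cells. As a control on cell type proportions, the paper re-analysed published chimaeras made with tdTomato+ WT ES cells. It reports negligible differences there between injected and host cells. Since injected ES cells contribute mainly to tissues of the epiblast, and host cells to epiblast and extraembryonic lineages alike, the ancestry of a gut cell and its genotype cannot be told apart either. Replicates were libraries, and the labels do not say whether libraries of a genotype came from separate pools of embryos, so the p-values below measure the spread between libraries, which may be technical.

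The gut tube is formed by definitive endoderm, which leaves the primitive streak at gastrulation, together with descendants of visceral endoderm that become dispersed among it. Foxa1 and Foxa2 are pioneer transcription factors of endoderm, Sox17 is required for its formation, and Hox and Cdx genes set the posterior identity of mid and hindgut. TET enzymes oxidise methylated cytosines in DNA and so open a route to demethylation of promoters, enhancers and imprinting control regions.

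Libraries differed in depth per cell, which matters for a rule that asks for single UMIs. The members had a median of 16190, 12564, 38638 and 64510.5 UMIs in Tet-TKO libraries 1 to 4 and of 12068 and 13230 in WT host libraries 1 and 2. Their summed counts ranged from 793241 UMIs in Tet-TKO library 2 to 5326061 in WT host library 1. The tdTomato reporter had 1 or more UMIs in 69.5% to 96.1% of members in the Tet-TKO libraries and in 0.246% and 0.565% of members in the WT host libraries. No cell barcode was shared between members of any of the 15 pairs of libraries, whereas up to 26 barcodes of kept cells were. Scrublet ranked 16, 5, 0 and 0 members of the Tet-TKO libraries and 33 and 15 of the WT host libraries among likely doublets, which were kept.

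The genes that chose the cells describe them but test nothing. Epcam, an adhesion molecule of epithelia, had 813, 884, 905 and 617 CPM (UMIs per 1000000 UMIs of all genes in a library's summed members) in the Tet-TKO libraries and 956 and 856 CPM in the WT host libraries. Foxa1 had 108, 136, 107 and 66.0 CPM against 131 and 133 CPM, while it was between 1.44 and 2.90 CPM in the other cells of the libraries. Foxa2 had 62.2, 50.4, 68.3 and 41.0 CPM against 73.8 and 64.9 CPM. The lowest values of all 3 genes were in Tet-TKO library 4, which held 18 members. Many cells lay next to the limits of the rule. Exactly 1 Foxa1 UMI was found in 464 members, and 1950 cells met every other criterion but had none. For the choice among Foxa2, Sox17, Pyy and Trh, 358 members had exactly 1 of the 4 genes detected and 210 cells outside had none of them. Only 33 members had a single Epcam UMI, against 130 cells without any. A single T UMI kept 81 cells out, and 28 members showed 2 yolk sac genes where 19 cells with 3 were left out.

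Of the rule's optional genes Pyy alone did not overlap between genotypes in level, again as a description with no test. Pyy encodes the gut hormone peptide YY. It had 54.3, 10.1, 2.51 and 3.79 CPM in the Tet-TKO libraries. The WT host libraries had 181 and 257 CPM, above every Tet-TKO value. Trh, the precursor of thyrotropin-releasing hormone, was spread widely, with 453, 233, 93.5 and 29.6 CPM against 183 and 69.8 CPM. Sox17 had 129, 139, 41.2 and 11.4 CPM against 108 and 68.2 CPM. For Trh and Sox17 the genotypes overlapped, and the deep Tet-TKO libraries 3 and 4 were lower than libraries 1 and 2. Any one of these genes was enough for the rule, so a deeper cell can pass with a lower level of each.

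Gut endoderm made up 2.38%, 0.618%, 2.21% and 1.78% of kept cells in the Tet-TKO libraries and 4.93% and 1.96% in the WT host libraries, so the genotypes overlapped. Each cell was then thinned at random to 5000 UMIs before the rule was applied, which left out between 76 and 724 shallower cells per library. The share was then 0.902%, 0.299%, 0.449% and 0.326% in the Tet-TKO libraries (61, 27, 10 and 3 members) and 2.27% and 0.962% in the WT host libraries (175 and 80 members). All 4 Tet-TKO libraries were below both WT host libraries, with a mean of 0.494% ± 0.280 (SD, n = 4) against 1.62% ± 0.925 (SD, n = 2), a difference of -1.12 percentage points. The exact two-sided permutation test gave p = 0.133, the smallest that 15 splits of 4 against 2 libraries allow, so this design cannot reach 0.05. The 95% exact binomial interval of Tet-TKO library 1, 0.691% to 1.16%, overlapped that of WT host library 2, 0.764% to 1.20%. Such intervals cover counting error only. Cells with at least 1% haemoglobin UMIs were 1.55% to 3.0% of kept cells in the Tet-TKO libraries and 18.0% and 27.2% in the WT host libraries. Without them in the total the difference was -1.55 percentage points. It was -0.468 without WT host library 1 and -1.78 without WT host library 2, and -0.370 when at least 2 of Foxa2, Sox17, Pyy and Trh had to be detected. That order of the libraries depended on the depth and the rule. Tet-TKO library 1 was above WT host library 2 when cells were thinned to 3000 UMIs (0.507% against 0.425%) or to 10000 UMIs (1.68% against 1.42%), and under the stricter rule at 5000 UMIs (0.414% against 0.337%). In each of these 3 settings 3 of 4 Tet-TKO libraries were below both WT host libraries, and the exact permutation test gave p = 0.267. Between same-numbered libraries the order held in these settings, at 5000 UMIs and without thinning. Tet-TKO library 1 was below WT host library 1, and Tet-TKO library 2 below WT host library 2. The labels do not say whether same-numbered libraries share embryos, and this order was not tested.

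**Figure D1:**
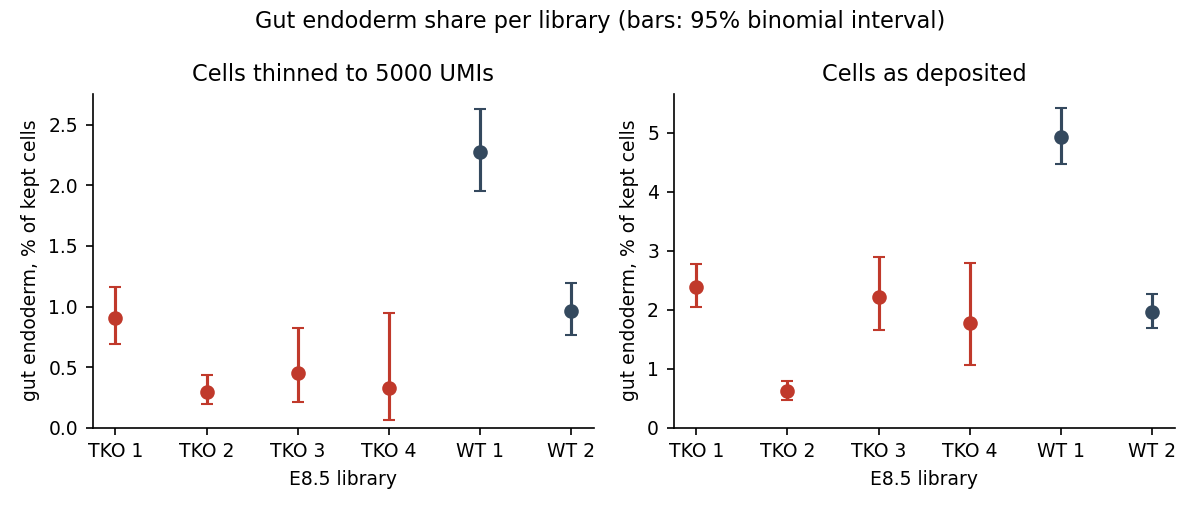
Share of kept cells that met the gut endoderm rule in each E8.5 library, in percent, after thinning each cell to 5000 UMIs (left) and as deposited (right); points are libraries and bars are 95% exact binomial intervals. At 5000 UMIs the 4 Tet-TKO libraries lie between 0.299% and 0.902%, below both WT host libraries, whereas the unthinned shares overlap, as do shares thinned to 3000 or 10000 UMIs, which are not drawn.

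To see which regions of the gut the members stood for, the 847 members with at least 5000 UMIs were clustered again, without the genes of the rule and without any gene that passed an adjusted p of 0.05 between genotypes. They fell into 10 sub-clusters, which are named below only where markers of a region led them. Shares of sub-clusters are given as a description, since the clusters were built from these cells. Limits between sub-clusters were not sharp, so the partition of highest quality over 200 random starts was used. The order of the genotypes was read again in the best-matching cluster of each start. All starts used the same cells and neighbours, so they bear on the partition and not on the spread between libraries.

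Sub-cluster 1 was hindgut-like, with 10 of 10 hindgut markers raised, among them Cdx2, Cdx4 and Hoxb8. It held 124 cells and made up 6.75%, 8.47%, 2.0% and 0% of the members in the Tet-TKO libraries and 20.3% and 16.8% in the WT host libraries. Every Tet-TKO library was therefore below both WT values, as it was in 200 of 200 starts, although the cluster held 60 to 175 cells between starts. Sub-cluster 2 was foregut-like, with 7 of 16 foregut markers raised, among them Otx2, Sox2, Pax9, Tbx1, Eya1 and Irx1. The mean log2 fold over the 16 markers was 0.168. It was led by Otx2. Its 120 cells were 16.0%, 27.1%, 26.0% and 16.7% of Tet-TKO members against 12% and 9.25% of WT host members, above both WT values in each Tet-TKO library and in 200 of 200 starts. Sub-cluster 4, also foregut-like, was led by Nkx2-5, Nkx2-3 and Isl1, factors of the pharyngeal and ventral foregut. In it 6 of the 16 foregut markers were raised, including Pyy and Trh, genes of the rule, with a mean log2 fold of 0.966 over the 16. Its 112 cells were 23.9%, 10.2%, 10.0% and 5.56% against 11.7% and 9.25%, an overlap.

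Sub-clusters 3, 5 and 6 carried no regional name. Sub-cluster 5 was led by Hhex, a regulator of the ventral foregut and liver bud, with Fgb, Pyy and Ttr among its leading genes. Its 111 cells were 6.13%, 5.08%, 6.00% and 0% of members in the Tet-TKO libraries and 14.3% and 23.1% in the WT host libraries. The Tet-TKO shares were thus all lower, although library 4 had only 18 members. They were lower in 200 of 200 starts too, but the best-matching cluster held 74 to 140 cells. Its median overlap with sub-cluster 5 was 0.676 (cells in both over cells in either). Sub-cluster 6 was led by Mnx1, a homeobox gene of dorsal endoderm and notochord, and by Fgfbp1. Its 102 cells were 16.6%, 23.7%, 24.0% and 16.7% of Tet-TKO against 7.03% and 10.98% of WT host members, all higher in 200 of 200 starts. Sub-cluster 3, led by Osr1, had 113 cells, and its shares of 9.20%, 11.9%, 12% and 22.2% overlapped those of 13.3% and 17.3%.

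The other sub-clusters carried genes of other tissues. Sub-cluster 7, with 56 cells, was neural-like, with Sox1, Sox3 and Pax6 raised. It made up 6.13%, 5.08%, 18.0% and 38.89% of Tet-TKO members against 4.43% and 5.78% of WT host members, and was most frequent in the deep libraries 3 and 4. Sub-cluster 8, with 48 cells, was yolk sac endoderm-like, with 5 of 6 markers raised, among them Rbp4 and Ttr. Sub-cluster 9, with 39 cells, was cardiomyocyte-like, with 5 of 6 markers raised, among them Actc1 and Myl7, beside 5 of 6 markers of lateral and splanchnic mesoderm. It also had 4 of 10 hindgut and 3 of 6 endothelium markers raised. The median UMI count was 23844.5 in sub-cluster 7 and 24672 in sub-cluster 9, and 33.9% and 64.1% of their cells ranked among likely doublets. The fixed number ranked per library left little room for cells of Tet-TKO libraries 3 and 4 in these percentages. Sub-cluster 10 consisted of 22 cells of the WT host libraries, 19 and 3, and of 0 Tet-TKO cells, the same in 200 of 200 starts. A count of 0 allows up to 3 such cells in a Tet-TKO library, for counting error only. It was led by Trap1a and Rhox5, with raised notochord markers Chrd, Nog and Foxj1 beside 6 of 8 genes of visceral endoderm descendants, and it stayed unnamed.

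**Figure D2:**
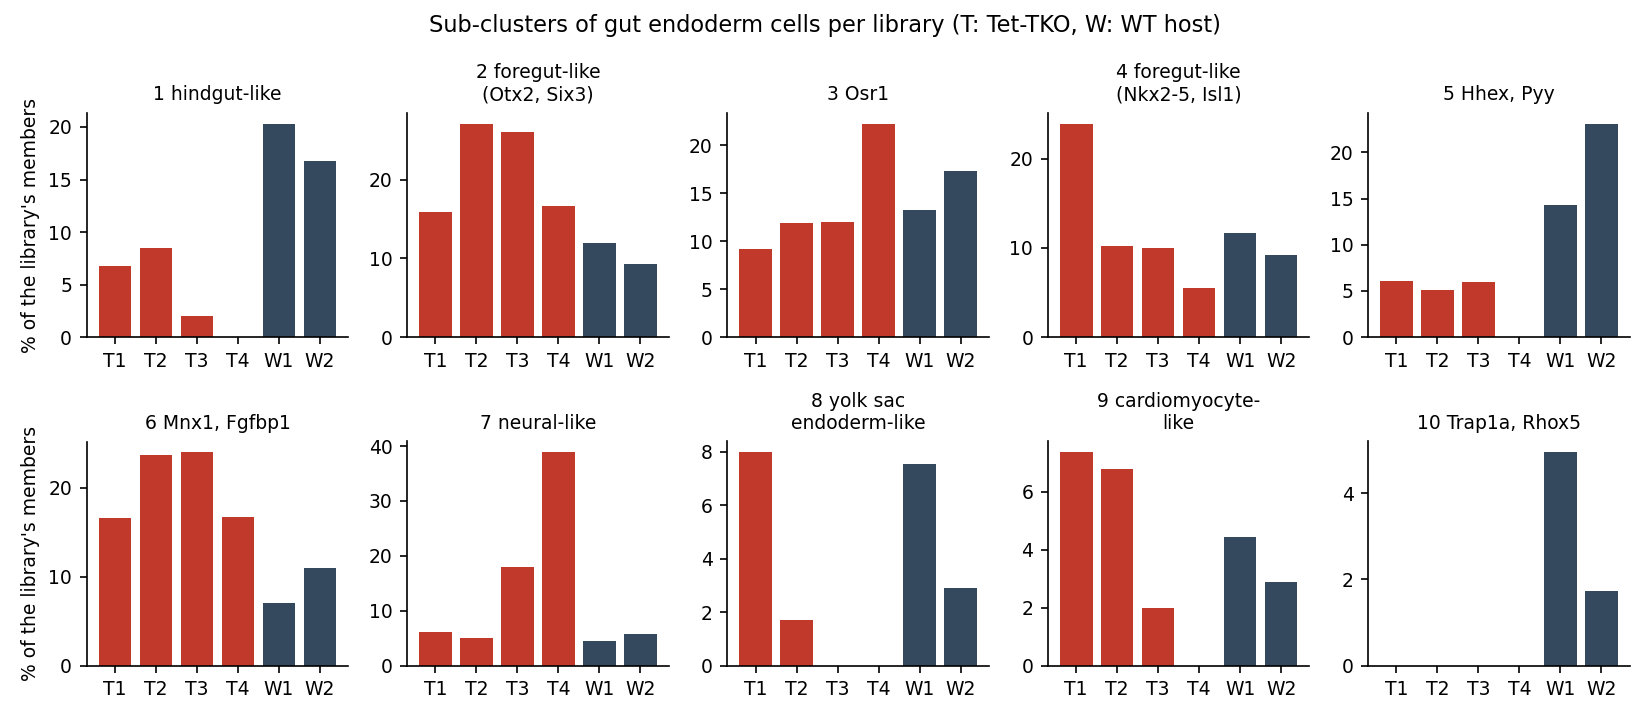
Sub-clusters of gut endoderm cells as a percentage of each library's clustered members (y axis), for Tet-TKO libraries 1 to 4 (T1 to T4) and WT host libraries 1 and 2 (W1, W2). Each bar is 1 library. Sub-clusters 2 and 6 are higher and sub-clusters 1, 5 and 10 lower in every Tet-TKO library than in both WT host libraries.

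Within each of sub-clusters 1 to 6 Tet-TKO cells had the lower pooled level of Pyy. The gap was wide in the foregut-like sub-cluster 4, with 6.98 CPM in Tet-TKO and 417 CPM in WT host cells, and in the Osr1-led sub-cluster 3, with 9.49 against 345 CPM. In the Hhex-led sub-cluster 5 the pooled levels were 407 and 541 CPM, where the Tet-TKO libraries gave 10, 3, 3 and 0 cells and library 1 had by far the highest Pyy level of the 4. Trh went the other way in sub-cluster 4, with 1065 CPM in Tet-TKO and 293 CPM in WT host cells, where the Tet-TKO libraries gave 39, 6, 5 and 1 cells and library 1 had the highest Trh level of the 4. Sox17 was higher in Tet-TKO cells in 4 of 6 of these sub-clusters, with 132 against 35.6 CPM in sub-cluster 4, and lower in the other 2, with 175 against 313 CPM in sub-cluster 6. These are sums over libraries, with no replicate spread.

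Expression was compared between genotypes on UMI counts summed over the members of each library, with edgeR's quasi-likelihood test and Benjamini-Hochberg adjustment over 10557 genes. Calls needed an adjusted p no higher than 0.01 and a log2 fold change of 1 or more in size. By this rule 47 genes, or 0.445% of those tested, differed in gut endoderm, 19 of them higher in Tet-TKO cells (0.180%) and 28 lower (0.265%). The tdTomato reporter was among the higher ones. The count was 16 without WT host library 1, 21 without WT host library 2 and 31 without Tet-TKO library 3. The median log2 fold change of all genes was 0.0174. Without regard to a test, 20.9% of genes did not overlap between genotypes, 6.46% with all 4 Tet-TKO libraries above and 14.4% with all 4 below both WT host libraries. Levels of haemoglobin, erythroid and yolk sac endoderm genes moved with genotype as well, and their part in the results below was not tested. The 9 haemoglobin genes summed to 6.07 to 35.3 CPM in the Tet-TKO and to 2032 and 3067 CPM in the WT host gut sums, and 6 erythroid markers to 2.01 to 3.03 against 42.8 and 49.6 CPM. Yolk sac endoderm markers summed to 366 to 2989 CPM against 3187 and 4446 CPM. The genotypes overlapped in the neural, cardiomyocyte and notochord markers. For neural markers the sums were 18.4, 22.7, 129 and 214 CPM against 35.9 and 42.1 CPM, and for cardiomyocyte markers 22.4, 18.9, 184 and 6.07 CPM against 159 and 36.8 CPM. Notochord markers summed to 31.9 to 50.8 CPM against 30.2 and 35.5 CPM, with Noto at 0 in all 6. Of the 28 lower genes 4 were haemoglobin genes and 5 were X-linked, where 3.58% of the genes tested are X-linked. Xist, the RNA of the inactive X chromosome, had 25.3, 0, 0 and 4.55 CPM against 774 and 512 CPM (adjusted p = 0.0882). The Y-linked Eif2s3y had 4.28, 5.04, 0 and 0.758 CPM against 19.2 and 25.2 CPM (log2 fold change -3.08, edgeR adjusted p = 0.0432, which was 0.156 with the Tet-TKO libraries summed in pairs and 0.343 with cells thinned before the rule). Eif2s3y also missed the threshold without WT host library 1 (0.365) or 2 (0.483) and without Tet-TKO library 2 (0.0776) or 4 (0.0577). Both Xist and Eif2s3y were thus lower in every Tet-TKO library than in both WT host libraries.

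Rhox5 and Trap1a, which are markers of visceral endoderm and its descendants, were lower in Tet-TKO gut endoderm, and in the other cells of the libraries too. Rhox5, an X-linked homeobox gene (chromosome X of mm10, 37804842 to 37808876), had 1.65, 6.30, 2.51 and 0 CPM in the Tet-TKO libraries and 51.1 and 26.8 CPM in the WT host libraries. Trap1a, an X-linked gene known as the tumour rejection antigen P1A (chromosome X, 139333683 to 139338169), had 2.30, 7.56, 0.502 and 0.758 CPM against 75.3 and 41.3 CPM. Neither gene overlapped between genotypes, which the rule for named genes requires. The log2 fold change was -4.14 (standard error 0.51, edgeR adjusted p = 0.003) for Rhox5 and -4.71 (standard error 0.51, edgeR adjusted p = 0.00175) for Trap1a. The WT host UMIs of both genes lay largely in 2 sub-clusters whose share was lower in every Tet-TKO library. The hindgut-like sub-cluster 1 gave 136 of 321 WT host UMIs of Rhox5 and 136 of 457 of Trap1a, and the unnamed sub-cluster 10 gave 87 and 170. Pooled levels were lower in Tet-TKO cells in 6 of 6 of sub-clusters 1 to 6, on few Tet-TKO UMIs (at most 4 of Rhox5 and 8 of Trap1a in any of them). Those cells are among the ones tested, so this adds no test. Without the cells of sub-clusters 8 and 10 the log2 fold changes were -3.82 (edgeR adjusted p = 0.00321) and -4.22 (edgeR adjusted p = 0.00212). Both calls rested on WT host library 1, without which the adjusted p was 0.0968 for Rhox5 and 0.043 for Trap1a. They were also lost when cells were thinned before the rule, where the log2 fold changes shrank to -2.16 (adjusted p = 0.512) and -2.97 (adjusted p = 0.3). With libraries 1 and 2 alone both calls were lost without the replicate block (0.014 and 0.0181) and kept with it. That of Trap1a was lost as well when members needed at least 2 Foxa1 UMIs and 2 of the 4 optional genes (-3.67, adjusted p = 0.391) and when Tet-TKO libraries were summed in pairs (0.0172). The Rhox5 call was lost without Tet-TKO library 1 (adjusted p = 0.0116) or 3 (0.0209) as well. In the other cells of the libraries neither gene overlapped between genotypes either. Rhox5 had 11.6 to 20.9 CPM there in Tet-TKO and 170 and 58.3 CPM in WT host libraries (log2 fold change -2.83, edgeR adjusted p = 0.0116). Trap1a had 71.4 and 21.4 CPM there in the WT host libraries, above every Tet-TKO value (-3.50, edgeR adjusted p = 0.0778). Neither was called in the other cells.

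Lists of genes were counted at an adjusted p of 0.05 with no limit on the fold, which 141 genes passed (1.34%), 0.398% as higher and 0.938% as lower. Of 16 tested genes of the visceral endoderm list, Rhox5, Trap1a and Trf passed, all 3 lower. The list had 15 negative log2 fold changes and a median of -2.07, against 0.0174 over all genes tested. It was not tested as a set. Trf, the iron carrier transferrin, had 1 UMI in all 4 Tet-TKO libraries together, in library 3, while the WT host libraries had 6.57 and 5.37 CPM (edgeR adjusted p = 0.0192). Its adjusted p was 0.0585 without Tet-TKO library 3 and 0.223 without WT host library 2. Ttr, which encodes the thyroid hormone carrier transthyretin, had 406, 213, 105 and 69.0 CPM against 1114 and 1150 CPM. Rbp4, the retinol carrier, had 60.2, 18.9, 29.1 and 9.86 CPM against 408 and 247 CPM. Although neither overlapped, they missed the threshold, with log2 fold changes of -2.42 (adjusted p = 0.331) and -3.26 (adjusted p = 0.0858) in edgeR.

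Further named genes fell in Tet-TKO gut endoderm, most of them in the other cells of the libraries as well. Of the 28 lower genes 26 had a lower value and 21 were also called lower in the other cells, against 48.5% and 1.58% of the 10556 genes tested in both, and in the other cells Fgb had a log2 fold change of -4.84, Gm42047 of -4.86, Smim22 of -3.74, Rps3a1 of -3.89 and As3mt of -2.55. Fgb, the beta chain of fibrinogen, had 4.28, 5.04, 5.02 and 3.79 CPM against 34.5 and 45.4 CPM, a narrow spread within each genotype. Its log2 fold change was -3.09 (standard error 0.25, edgeR adjusted p = 0.000113), and it kept the call under every alternative in which it was tested. In the Hhex-led sub-cluster 5 Fgb had 8.86 CPM in Tet-TKO and 115 CPM in WT host cells. Smim22, which encodes a small membrane protein, had at most 1.97 CPM in the Tet-TKO libraries against 22.0 and 19.4 CPM, a log2 fold change of -4.15 (edgeR adjusted p = 0.00202). Cltrn, the X-linked gene of collectrin, had 0.987 to 3.78 CPM against 22.7 and 14.5 CPM (log2 fold change -3.37). As3mt, an arsenite methyltransferase, had 1.26 to 4.61 CPM against 21.6 and 22.7 CPM (-2.77), and the X-linked Egfl6, a secreted EGF-like protein, had up to 1.26 CPM against 9.76 and 9.50 CPM (-3.93). The non-coding RNA Gm42047 had up to 1.00 CPM against 32.5 and 24.8 CPM (-5.54). The ribosomal protein gene Rps3a1 had 259 to 361 CPM against 4691 and 4860 CPM (-3.93), and reads of its near-identical copies can be assigned to either, so its value is uncertain. Without WT host library 1 the calls of Smim22 (adjusted p = 0.0541), As3mt (0.0541), Cltrn (0.142) and Egfl6 (0.27) were lost, and without WT host library 2 those of Smim22 (0.015), As3mt (0.0355) and Egfl6 (0.128). Without Tet-TKO library 3 they were 0.013 for Smim22, 0.014 for As3mt, 0.013 for Cltrn and 0.0196 for Egfl6, and Egfl6 was also lost without Tet-TKO library 1 (0.0157) or 2 (0.0154). With the Tet-TKO libraries summed in pairs the calls of As3mt (0.015), Cltrn (0.0118) and Egfl6 (0.015) were lost, with cells thinned before the rule those of As3mt (0.0662) and Smim22 (0.016), and under the stricter definition of members that of As3mt (0.0764).

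Cldn11, a tight junction claudin (chromosome 3, 31149920 to 31164324), was lower in Tet-TKO gut cells. It had 5.60, 8.82, 6.03 and 5.31 CPM against 27.8 and 29.3 CPM, with no overlap and little spread within a genotype. The log2 fold change was -2.17 (standard error 0.26, edgeR adjusted p = 0.00175). Cldn11 was lower in 6 of 6 of sub-clusters 1 to 6, which hold cells of the same sums and add no test. It had 10.7 against 70.9 CPM in the Osr1-led sub-cluster 3 and 0 against 3.21 CPM in the hindgut-like sub-cluster 1. In the other cells of the libraries Cldn11 had 2.97 to 3.84 CPM in Tet-TKO and 3.13 and 2.82 CPM in WT host. Without WT host library 1 or 2 the adjusted p was 0.0541 or 0.0384, and it was 0.0123 with the Tet-TKO libraries summed in pairs and 0.0295 with cells thinned before the rule. Cldn11 was described here after its values were seen, as were the next 4 genes of this paragraph. Clic6, a chloride channel gene, had 17.4 to 21.4 CPM against 76.8 and 69.4 CPM (log2 fold change -1.82), Mfap2, a microfibril protein, 15.2 to 26.7 CPM against 78.9 and 98.3 CPM (-1.86), and the cadherin Cdh6 40.3 to 48.7 CPM against 116 and 119 CPM (-1.37). Pygl, the liver glycogen phosphorylase, had 1.52 to 5.60 CPM against 20.7 and 24.8 CPM (-2.32). All 4 passed the edgeR call. In the other cells Clic6 (-3.59), Mfap2 (-1.12) and Pygl (-2.04) were called lower as well, whereas Cdh6 (-0.53) was not. Fits with a library left out are not given for these 4.

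The 250 bases before the start of Trap1a and of Cldn11 are shown because TET enzymes act on methylated CG dinucleotides, and these called genes differ in how many their promoters hold. The sequences are those of RefSeq for GRCm38.p6, on the + strand at chrX:139333433-139333682 and chr3:31149670-31149919, with each CG, the only motif searched, in capitals.
Trap1a: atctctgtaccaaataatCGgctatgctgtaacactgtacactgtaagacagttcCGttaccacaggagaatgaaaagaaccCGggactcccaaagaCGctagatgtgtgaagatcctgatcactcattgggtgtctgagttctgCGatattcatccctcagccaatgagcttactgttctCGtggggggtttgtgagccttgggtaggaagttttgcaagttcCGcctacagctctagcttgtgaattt
Cldn11: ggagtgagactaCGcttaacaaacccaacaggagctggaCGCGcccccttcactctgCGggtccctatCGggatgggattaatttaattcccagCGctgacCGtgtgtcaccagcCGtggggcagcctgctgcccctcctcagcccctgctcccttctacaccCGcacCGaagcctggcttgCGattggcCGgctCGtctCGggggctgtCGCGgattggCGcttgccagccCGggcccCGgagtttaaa
Trap1a has 7 CG in this window, and 56.6% of 27025 mouse promoters of the same length have as many or fewer. Cldn11 has 19, and 82.3% have as many or fewer, with a median of 6 over all promoters. CG reads the same on both strands. Called lower genes other than haemoglobin had a median of 11 CG (19 of 24 matched to a promoter), and called higher genes 13 (6 of 19 matched). Methylation was not measured in these libraries. In the cell types it profiled for methylation, the paper reports TET-dependent demethylation at distal elements and negligible effects at promoters. Any part of CG number in the genotype differences was not tested.

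The genes that rose were for the most part pseudogenes, and shared their direction with the other cells. Of the 19 higher genes 10 were annotated as pseudogenes, against 1.30% of the genes tested, and all 19 had a higher value and 18 were also called higher in the other cells of the libraries, against 51.5% and 0.549% of the genes tested in both. Rps15a-ps8 had 150, 145, 175 and 148 CPM in Tet-TKO and 5.82 and 2.07 CPM in WT host gut sums, a log2 fold change of 5.14 (edgeR adjusted p = 3.87e-06). Rps13-ps1 had 78.2 to 124 CPM against 3.57 and 0.413 CPM (5.35). AA465934 had 21.4, 21.4, 38.2 and 72.0 CPM against 0.939 and 0.413 CPM (5.57). Gm10036 (4.88), Gm15459 (4.65) and Gm9825 (3.54) rose too, with log2 fold changes in parentheses. Gm9855 and Gm6969 had 1 UMI each in the WT host libraries together, against 73 and 66 UMIs in the Tet-TKO libraries. Gm6594 had 5.31 to 10.1 CPM in the Tet-TKO libraries and no UMI in either WT host library. Reads of such copies can also be assigned to the parent gene, and strain differences in sequence go with genotype, so these values are uncertain. Eif3j2, a copy of a translation initiation factor subunit gene, had 25.2 to 44.7 CPM against 2.07 and 3.30 CPM (3.74). That no group in this paragraph overlapped was fixed by the rule for named genes and adds nothing to the test. Without WT host library 1 the calls of 7 were lost, namely Gm6594 (adjusted p = 0.0851), Gm9855 (0.0544), Gm6969 (0.0716), AA465934 (0.162), Gm15459 (0.0541), Eif3j2 (0.0148) and Gm9825 (0.0181). Without WT host library 2 they were 0.027, 0.027, 0.035, 0.118 and 0.0214 for the first 5, and 0.015 for Gm9825. Without Tet-TKO library 3 the calls of Gm6594 (0.0201), Gm9855 (0.0136), Gm6969 (0.0187) and AA465934 (0.027) were lost, without library 2 those of Gm6594 (0.014), Gm6969 (0.0102) and AA465934 (0.0125), and without library 1 that of Gm6594 (0.0115). With the Tet-TKO libraries summed in pairs those of Gm6594 (0.0197), Gm6969 (0.022), Gm9855 (0.0123) and Gm15459 (0.0101) were lost, and that of Gm9825 was lost with thinning before the rule (0.0306) and under the stricter definition of members (0.0107).

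Imprinted genes changed in both directions. By an adjusted p of 0.05, 3 of 29 tested imprinted genes rose and 4 fell. Meg3, the maternally expressed non-coding RNA of the Dlk1-Meg3 locus (chromosome 12, 109541001 to 109571726), had 362, 311, 326 and 325 CPM in Tet-TKO and 719 and 660 CPM in WT host gut endoderm. Rian, a maternally expressed RNA of the same locus, had 94.5, 65.6, 86.9 and 108 CPM against 164 and 163 CPM. The groups did not overlap, and all 4 Tet-TKO libraries were below both WT host libraries in 14.4% of all genes tested. The log2 fold changes were -1.01 (standard error 0.13, edgeR adjusted p = 0.00371) for Meg3 and -0.82 (standard error 0.17, edgeR adjusted p = 0.0432) for Rian. H19, a maternally expressed RNA beside Igf2 (chromosome 7, 142575529 to 142578143), had 183, 187, 286 and 127 CPM against 474 and 575 CPM (-1.38, edgeR adjusted p = 0.0228). Asb4, also maternally expressed, had 1.97, 5.04, 2.01 and 0 CPM against 17.5 and 21.5 CPM (-3.21, edgeR adjusted p = 0.0108). Meg3, Rian and H19 were lower in 6 of 6 and Asb4 in 5 of 6 of sub-clusters 1 to 6. These hold the cells that gave the calls, and the share of all genes with such an order was not counted.

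The 3 imprinted genes that passed as higher are expressed from the paternal allele. Over all 29 tested, 14 log2 fold changes were positive and 15 negative, with a median of -0.058. Genes that did not pass were not sorted by parental allele, so no rule by allele can be read from those that did. Snrpn, a splicing factor gene (chromosome 7, 59982495 to 60140219), had 147, 155, 184 and 214 CPM against 47.9 and 54.9 CPM, a log2 fold change of 1.81 (standard error 0.17, edgeR adjusted p = 0.000394). Nnat, which encodes the membrane protein neuronatin, had 328, 292, 661 and 351 CPM against 126 and 163 CPM (1.54, edgeR adjusted p = 0.0467). Zdbf2, a zinc finger gene, had 65.2, 59.3, 135 and 143 CPM against 26.7 and 28.1 CPM (1.92, edgeR adjusted p = 0.0343). Each was higher in 4 of 4 Tet-TKO libraries than in both WT host libraries, as were 6.46% of all genes tested. Pooled levels were higher in 6 of 6 of sub-clusters 1 to 6. The sub-clusters are parts of the cells that gave the calls, so this adds no test. Mcts2 is a paternally expressed retrogene within H13, and neither was on the list of imprinted genes. They were picked after their values were seen. Mcts2 (chromosome 2, 152687035 to 152687946) had 59.3 to 75.1 CPM against 30.8 and 34.7 CPM (1.14, edgeR adjusted p = 0.00722). H13, the signal peptide peptidase gene around it on the same strand, had 24.3 to 30.6 CPM against 78.1 and 77.2 CPM (-1.43, edgeR adjusted p = 0.00175). The genes overlap on 1 strand, so the assignment of reads between them is uncertain.

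With only 2 WT host libraries, these calls leaned on both. Without WT host library 1 the adjusted p was 0.121 for Meg3, 0.468 for Rian, 0.117 for H19, 0.105 for Asb4, 0.56 for Nnat and 0.504 for Zdbf2, and 0.0214 for Snrpn. Without WT host library 2 it was 0.0542, 0.405, 0.272, 0.134, 0.272, 0.405 and 0.00763 in the same order. H19 also missed the threshold without Tet-TKO library 2 (0.0755) and without sub-clusters 7 and 9 (0.0633) or 7 to 10 (0.0666), Rian without Tet-TKO library 2 (0.069) or 3 (0.115), Nnat without library 4 (0.0578) and Zdbf2 without library 3 (0.0797). Meg3 missed the call without Tet-TKO library 2 (0.0157) or 3 (0.013). The choice of members mattered too. With 18 cells per sum H19 was at -0.66 (adjusted p = 0.791), and it missed the threshold with thinning before the rule (0.824), under the stricter definition of members (0.321) and with Tet-TKO libraries 3 and 4 alone (0.122). In the first 3 of these settings Rian had 0.188, 0.218 and 0.0677, and it had 0.0733 with doublets removed. Nnat missed the threshold with 18 cells per sum (0.502) and under the stricter definition (0.205), and just missed it without members rich in haemoglobin and with cells of matching tdTomato only. Thinning before the rule took the call from Meg3 (0.0578), and pairwise sums of the Tet-TKO libraries took it from Meg3 (0.049), Rian (0.0758) and Zdbf2 (0.0602). The log2 fold changes kept their sign in each of these fits.

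**Figure D3:**
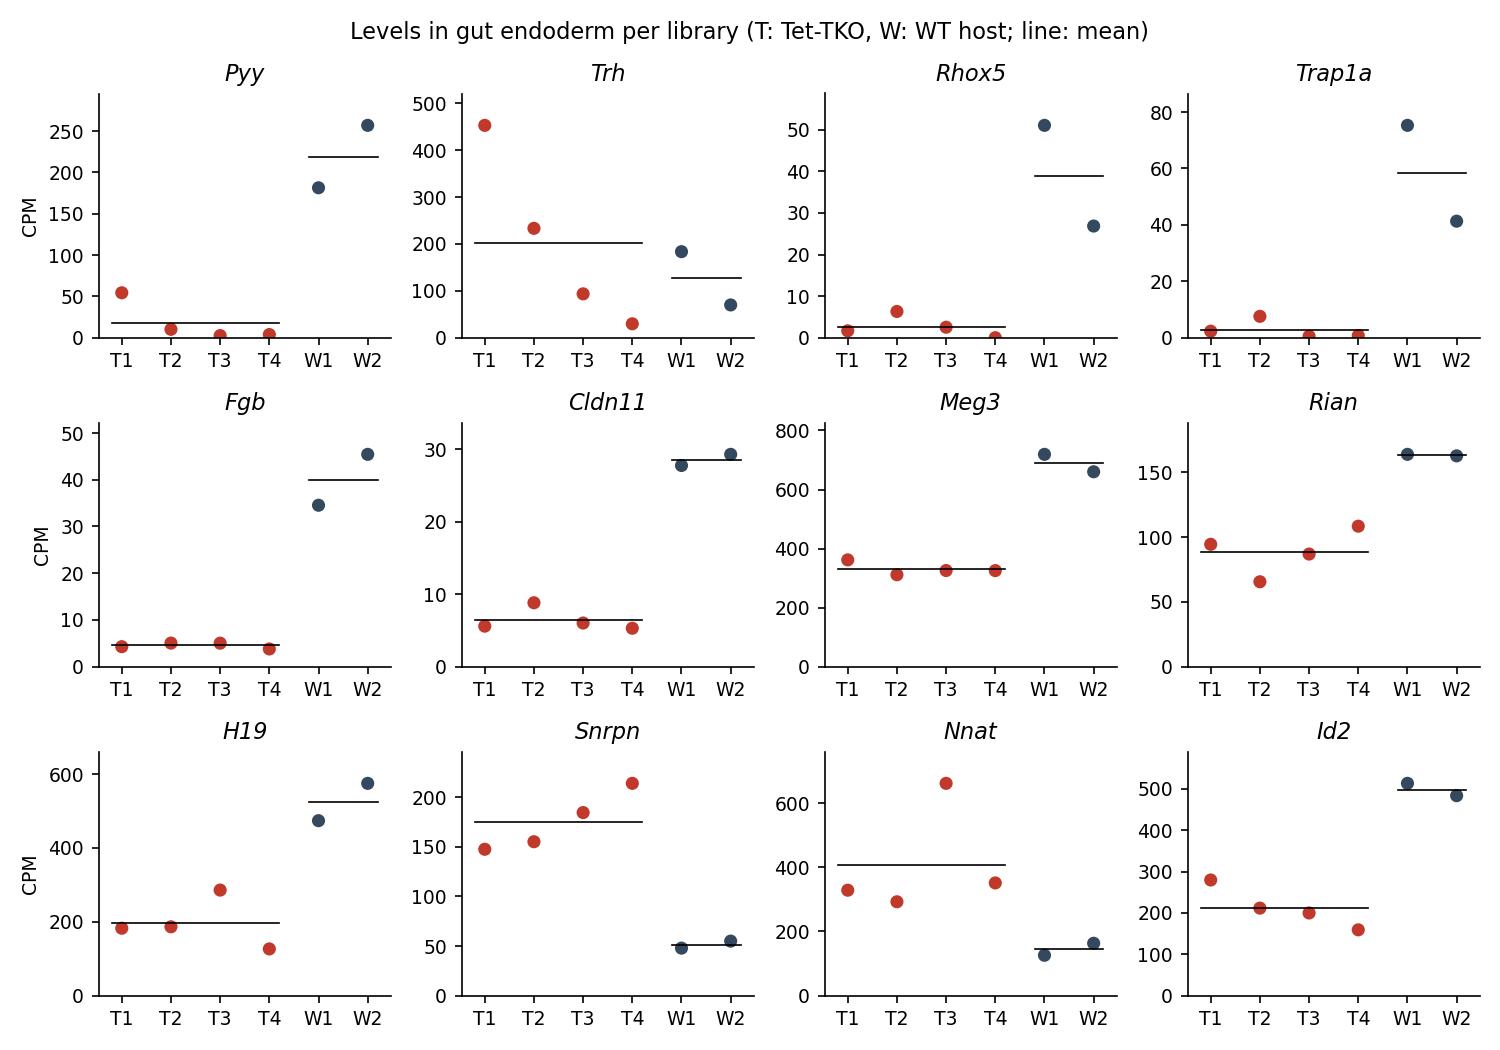
CPM of 12 genes in the summed gut endoderm members of each library, for Tet-TKO libraries 1 to 4 (T1 to T4) and WT host libraries 1 and 2 (W1, W2). Points are libraries, lines are genotype means and each axis starts at 0. Only Trh overlaps between genotypes, and Snrpn and Nnat are the genes with higher Tet-TKO values throughout.

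**Figure D4:**
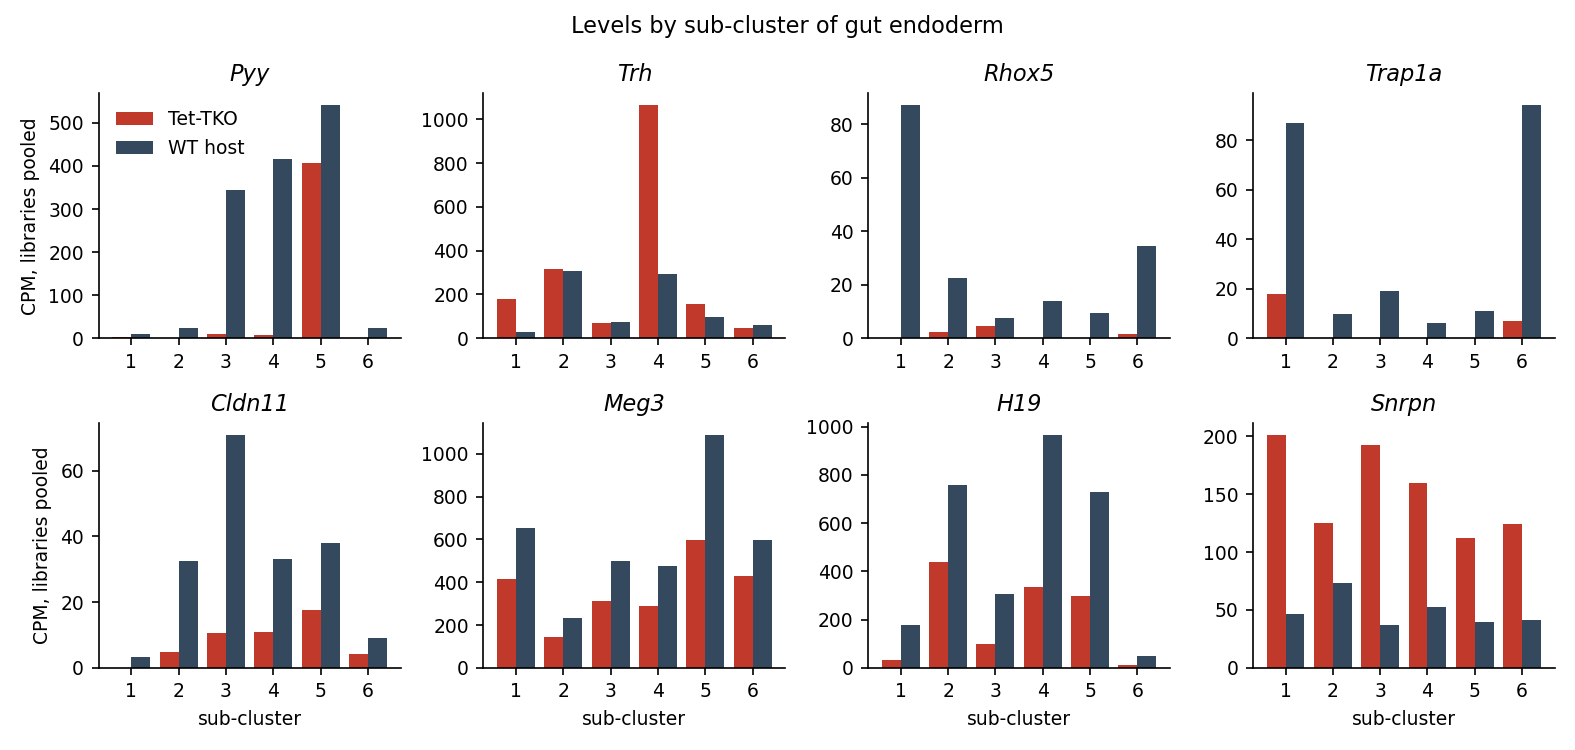
CPM of 8 genes by sub-cluster 1 to 6 of gut endoderm, with UMIs pooled over the libraries of a genotype (bars, Tet-TKO and WT host, no replicate spread). Pyy, Rhox5, Trap1a, Cldn11, Meg3 and H19 have the lower bar in Tet-TKO cells in all 6 sub-clusters, and Snrpn the higher.

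Transcription factors of the endoderm did not pass the test. None of 14 tested factors on the list reached an adjusted p of 0.05, and the lowest was 0.218 for Foxa3, with 19.1, 16.4, 4.02 and 4.55 CPM against 42.2 and 36.8 CPM. None of 20 foregut genes passed either. The lowest adjusted p was 0.146 for Pax1, and Hhex had 81.6, 47.9, 21.6 and 12.1 CPM against 117 and 117 CPM (adjusted p = 0.555). Otx2, an anterior homeobox gene, had 48.1, 60.5, 50.2 and 35.6 CPM against 34.5 and 21.9 CPM (adjusted p = 0.254). Of 17 midgut and hindgut genes 15 had a negative log2 fold change, but none passed. Their median was -0.54, against 0.0174 over all genes tested, and the list was not tested as a set. The lowest adjusted p was 0.209 for Hoxa7, with 8.89, 1.26, 6.53 and 0.758 CPM against 22.0 and 15.3 CPM. Cdx2, the master regulator of posterior endoderm, had 32.3, 31.5, 38.2 and 15.2 CPM against 43.7 and 39.2 CPM (log2 fold change -0.44, adjusted p = 0.623), and Nepn, a midgut gene, overlapped widely, with 102 to 524 CPM against 224 and 306 CPM. The hindgut-like share was lower and the foregut-like share of sub-cluster 2 higher in these libraries, as given above, and the part of this in the levels was not tested.

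In the signalling lists single genes passed. Id2, a target of BMP signalling that inhibits helix-loop-helix factors, was the only one of 15 tested BMP genes, with 280, 212, 200 and 159 CPM against 514 and 484 CPM (log2 fold change -1.17, edgeR adjusted p = 0.0228). Sfrp1, a secreted Wnt antagonist, was the only one of 16 Wnt genes, with 57.6, 55.5, 65.3 and 78.1 CPM against 34.4 and 23.1 CPM (1.17, edgeR adjusted p = 0.0228). It fell to 0.32 (adjusted p = 0.872) without the neural-like and cardiomyocyte-like sub-clusters 7 and 9. Ptch1, the hedgehog receptor and target, led the hedgehog list with 130, 143, 255 and 181 CPM against 99.3 and 106 CPM, but did not pass (adjusted p = 0.137), nor did any of the other 11 tested. None of 8 Nodal, 13 FGF or 11 retinoic acid genes passed, with lowest adjusted p of 0.43, 0.367 and 0.477. Id2 missed the threshold without Tet-TKO library 2 (0.0587) or 3 (0.0671), and Id2 and Sfrp1 missed it without WT host library 1 (0.276 and 0.0893) and without WT host library 2 (0.176 and 0.387), with pairwise sums of the Tet-TKO libraries (0.09 and 0.0777) and with thinning before the rule (0.343 and 0.962). Sfrp1 was at 0.33 in the last of these, and missed the threshold under the stricter definition of members (0.43, adjusted p = 0.869) and with 18 cells per sum (adjusted p = 0.693).

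Of 22 junction and keratin genes Rab25, a GTPase of epithelial trafficking, passed as lower, with 45.4, 46.6, 30.1 and 32.6 CPM against 83.2 and 85.5 CPM (log2 fold change -1.08, edgeR adjusted p = 0.0338). Krt8, a keratin of simple epithelia, had 616 to 1349 CPM against 1440 and 1390 CPM (adjusted p = 0.722). Of 9 mesenchymal genes Fn1, the matrix protein fibronectin, passed as lower, with 131 to 145 CPM against 235 and 232 CPM (-0.72, edgeR adjusted p = 0.0175). The log2 fold changes of 8 of the 9 were positive, with a median of 0.67 against 0.0174 over all genes tested. Under the stricter definition of members Fn1 was at -0.10 (adjusted p = 0.973), and it missed the threshold without sub-clusters 7 and 9 (0.491), with 18 cells per sum (0.4), with thinning before the rule (0.246) and with pairwise sums (0.101). Of the notochord markers Ppp1r1a, a phosphatase inhibitor, passed as higher (1.23, edgeR adjusted p = 0.0292), and it missed the threshold without sub-clusters 7 and 9 (0.226), with thinning (0.71), under the stricter definition (0.63, adjusted p = 0.748) and with pairwise sums (0.0941). Rab25 missed it with thinning (-0.70, adjusted p = 0.466), under the stricter definition (0.11), with pairwise sums (0.12) and with cells of matching tdTomato only (0.0574). None of 11 DNA methylation genes, 10 pluripotency genes or the 1 tested germline gene, Tdrkh, passed, and the lowest adjusted p were 0.382 for Tdg, 0.0554 for L1td1 and 0.835 for Tdrkh. Rab25, Fn1 and Ppp1r1a missed the threshold without WT host library 1 (0.362, 0.357 and 0.607) or WT host library 2 (0.36, 0.287 and 0.287), Rab25 also without Tet-TKO library 3 (0.0661) or 4 (0.0555), and Ppp1r1a without library 2 (0.0643) or 3 (0.0578).

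The members were then compared with the other 36331 kept cells of the same libraries, to see which differences were larger or smaller in gut endoderm. With the library as a block, edgeR called 286 of 19037 genes (1.50%) with a genotype effect that differed by a log2 value of at least 1 (164 genes without WT host library 1), 155 higher (0.814%) and 131 lower (0.688%) in gut endoderm. At an adjusted p of 0.05 with no limit on size it passed 5.26%, 2.81% higher and 2.46% lower. In that fit edgeR took the spread of most genes from the trend over genes (infinite prior degrees of freedom), so its p-values understate the spread between libraries. With 1 value per library, the log2 CPM of the members minus that of the other cells, limma passed 6 of 10557 genes (0.0568%) at an adjusted p of 0.05 and 1413 at an unadjusted p under 0.05. The other cells differ in make-up between genotypes, for example in the share of cells rich in haemoglobin given above. Their yolk sac endoderm markers summed to 115, 36.5, 96.0 and 16.7 CPM in the Tet-TKO libraries and to 3520 and 937 CPM in the WT host libraries. Such differences in the other cells cannot be told apart from a difference in gut cells.

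Meg3 was the only lower gene among the 6. It was lower in Tet-TKO gut endoderm, as above, while in the other cells it had 584, 591, 588 and 595 CPM in Tet-TKO and 442 and 353 CPM in WT host libraries. The log2 fold changes were -1.01 in gut endoderm and 0.48 in the other cells, which did not pass there (edgeR adjusted p = 0.0591). Their difference was -1.50 in limma (standard error 0.14, adjusted p = 0.0463) and -1.50 in edgeR. Rian had a like difference of -1.49 in limma that missed the threshold (adjusted p = 0.105), and Cldn11 one of -2.09 (adjusted p = 0.0973). The other 5 genes, 4933402E13Rik, Tuba4a, Mgst3, Tspan33 and Chchd10, had a higher Tet-TKO effect in gut endoderm. Each was lower in Tet-TKO among the other cells, with log2 fold changes of -4.20, -2.89, -3.62, -3.59 and -2.69. In gut endoderm none of them passed, with 0.97, -0.64, -0.88, -0.76 and -0.68. Of 23 foregut genes edgeR alone called Otx2 (1.47) and Pax9 (1.64) as higher and Nkx2-3 (-1.31) and the Wnt antagonist gene Sfrp5 (-1.26) as lower, given as the difference of log2 fold changes, and of 22 mid and hindgut genes it called 7, all lower. For Hoxa7 and Cdx2 of the latter, the limma differences were -2.66 (adjusted p = 0.262) and -1.29 (adjusted p = 0.244).

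**Figure D5:**
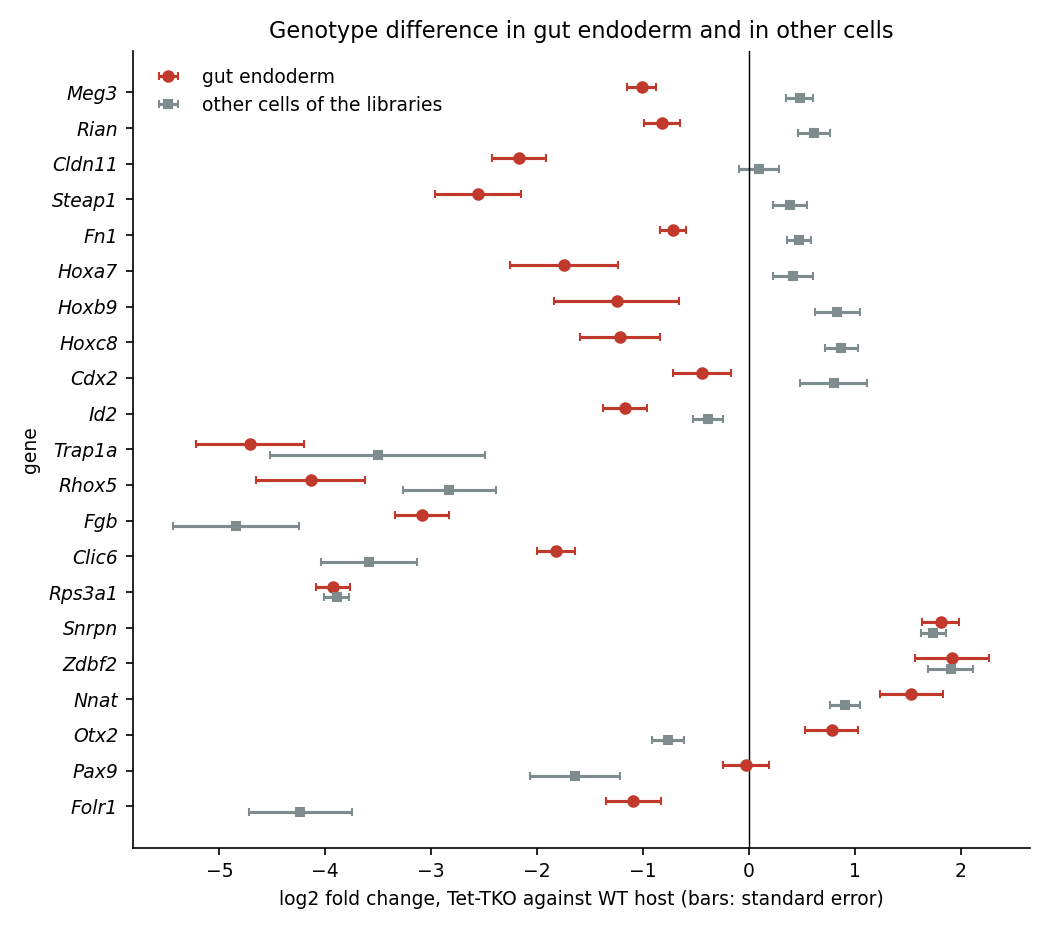
Log2 fold change of Tet-TKO against WT host (x axis, bars are standard errors from edgeR) for 21 genes, in gut endoderm (circles) and in the other cells of the libraries (squares). Meg3 and Rian lie below 0 in gut endoderm and above 0 in the other cells, while Snrpn, Zdbf2 and Rps3a1 lie at nearly the same place in both.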

How the data were processed

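The authors mapped the 10x reads to mm10 with Cell Ranger (the header of the deposited counts gives 3.1.0, whereas the study's methods name another version) and the deposited values are raw UMI counts, not normalised. A cell needed 1500 UMIs, with no more than 30% of them mitochondrial and 35% ribosomal. The members, lists and tests were chosen with earlier results of these data known. Members were summed per library, tested with filterByExpr, TMM and glmQLFTest of edgeR 4.0.16 (R 4.3.3), and printed as CPM. Genes of the rule were left out of tests. DESeq2 1.42.0 and limma 3.58.1 gave alternatives. Sub-clusters came from Leiden (scanpy 1.11.5, leidenalg 0.10.2) at resolution 0.8 on 1500 variable genes, 20 components and 15 neighbours, as the partition of highest quality over 200 seeds, since partitions from single seeds differed (median adjusted Rand index 0.863 to the one used, lowest 0.757). A sub-cluster was named from at least 3 markers raised by a log2 fold of 1. Named genes are the genes of the rule, the 10 largest non-overlapping rises and falls of at least 50 UMIs without tdTomato, haemoglobin genes and 6 sex-linked genes (Xist, Tsix and 4 Y-linked genes; other X-linked genes were kept), and list members at an adjusted p of 0.05. Where a list had none, up to 4 of its most abundant members are open to naming, and other list members named here were chosen after their values were seen. Simulated counts were used to check each test. Doublets were ranked with Scrublet and removed only as an alternative. At E7.5 no test was made. Some of the genes that meet the naming rule or mark a sub-cluster are not reported here.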

Additional observations from a re-analysis of the deposited data

Results flagged for a closer look

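In 5 of 62 sets of 4 Tet-TKO values 1 library stood far from the other 3, where chance gives about 1 set in 20. Pyy was at 54.3 CPM in Tet-TKO library 1, against 2.51 to 10.1 CPM in the other 3. Nnat was at 661 CPM in Tet-TKO library 3, against 292 to 351 CPM. Rps15a-ps8 was at 175 CPM in Tet-TKO library 3, against 145 to 150 CPM. Trf and the haem synthesis gene Alas2 were at 0.502 CPM, 1 UMI each, in Tet-TKO library 3 and at 0 in the others. With 3 values at 0 any single UMI is flagged, so the rate of chance given above does not apply to Trf and Alas2.

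Of the 286 genes in which edgeR called a different genotype effect in gut endoderm and in the other cells, the 28 that the rule for named genes picks are given here, as the difference of the log2 fold changes. It was positive for 4933402E13Rik (5.20), Fabp1 (4.21), Serpinf2 (3.79), Apoa1 (3.39), 2210011C24Rik (3.30), 2610528J11Rik (3.27), Irs4 (3.15), Folr1 (3.13), S100a1 (2.85) and Spp2 (2.82), among which Fabp1, Apoa1 and Spp2 are secreted or lipid-binding proteins of liver and yolk sac. A positive difference does not mean a rise in gut endoderm. In the same order the gut endoderm log2 fold changes were 0.97, 0.05, -0.60, -2.33, -0.56, -1.77, 2.57, -1.09, -0.04 and -2.33. None of these was called. In the other cells the values were -4.20, -4.32, -4.49, -5.85, -4.03, -5.03, -0.78, -4.24, -2.87 and -5.35. The difference was negative for Lum (-3.51), Steap1 (-2.90), Pla2g1b (-2.55), Tchh (-2.38), Fgf3 (-2.32), P4ha3 (-2.30), Cldn11 (-2.29), Myrf (-2.29), Enox1 (-2.13) and Osbpl5 (-2.13), of which Lum encodes the matrix proteoglycan lumican. Among the genes named for the genotype test it was also past the threshold for AA465934 (1.95), Trap1a (-1.66), Rhox5 (-1.36), Fn1 (-1.21), Meg3 (-1.50), Rian (-1.45), Hba-a1 (-2.05) and Hbb-y (-1.47). The limma differences in the same order were 0.87, -0.27, -1.12, -1.20, -1.50, -1.49, -1.25 and -0.67, so those of AA465934, Trap1a and Hbb-y were much smaller. Other genes described above were called by edgeR too, such as Clic6 (1.55) and Foxa3 (1.36). Of Lum, 52 of 55 WT host UMIs lay in the cardiomyocyte-like sub-cluster 9, and its difference was -2.24 without WT host library 2, where the call was lost, and -4.87 without Tet-TKO library 1. Without Tet-TKO library 1 the calls of 2610528J11Rik (1.72), Apoa1 (2.23), Fgf3 (-1.50), Pla2g1b and Tchh were lost, without library 2 those of Pla2g1b and Tchh, without library 3 that of Osbpl5 and without library 4 those of 2210011C24Rik, Enox1 and Tchh. They were lost without WT host library 1 for Spp2 (1.74), Fgf3, Osbpl5, P4ha3, Pla2g1b and Tchh, and without WT host library 2 for Enox1, Osbpl5, P4ha3, Pla2g1b and Tchh. In limma on 1 value per library 4933402E13Rik and Meg3 were past an adjusted p of 0.05, and the others of these 28 were not, apart from Lum and Fgf3, which limma did not test.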

How the results depend on the processing

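The number of gut endoderm genes called between genotypes, 47 above, moved with the fit. DESeq2 called 98, no filter on low counts 232, and an adjusted p of 0.05 called 141 without and 124 with the fold limit. Thinning before the rule gave 28, 18 cells per sum gave 18, and Tet-TKO libraries 1 and 2 and 3 and 4 summed gave 22. Libraries 1 and 2 alone gave 187 without and 288 with the replicate block. Libraries of the 2 genotypes can share a pool of embryos, since both fractions were sorted from pooled embryos. The labels do not say whether same-numbered libraries do. A figure legend of the paper speaks of a matching WT host for each Tet-TKO sample, without naming libraries. Deviations of same-numbered libraries correlated at 0.0306 over genes. Counting error in small sums lowers such a correlation, so it cannot decide whether libraries are paired. The main fit took no account of pairing, and the block was kept as an alternative. Tet-TKO libraries 3 and 4 alone gave 332. Without sub-clusters 7 to 10 there were 71 calls. Leaving out 1 library gave 16 to 57, with 16 without WT host library 1, 21 without WT host library 2 and 31 without Tet-TKO library 3. The 286 genes with a different effect in the other cells became 1002 at an adjusted p of 0.05 with no fold limit, 1 in limma by the same thresholds, and 164 to 303 with 1 library left out, the lowest without WT host library 1. The difference in thinned share was -0.468 to -1.78 percentage points with 1 library left out. The 20 named called genes kept their direction throughout and lost the call in 57 of 428 fits, the list genes in 106 of 482. Libraries 1 and 2 without the block, Tet-TKO libraries 3 and 4 alone, leaving out sub-clusters, leaving out members rich in haemoglobin, limma, and 0.05 with the fold limit were chosen after seeing the data. Tet-TKO library 4 had only 18 members, so its levels of genes of few UMIs rest on few counts.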

Other observations

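At E7.5, with 1 library of each genotype and no test, the same rule picked 23 of 5513 Tet-TKO cells, 0.417% (95% exact binomial interval 0.265% to 0.625%), and 125 of 7142 WT host cells, 1.75% (1.46% to 2.08%). After thinning to 5000 UMIs the shares were 0.230% and 1.13%. These intervals cover counting error only. Rhox5 had 17.3 CPM in the E7.5 Tet-TKO members and 251 CPM in the WT host members, and Trap1a 7.69 and 202 CPM. Cer1, a secreted antagonist of Nodal in anterior endoderm, had 71.1 and 295 CPM. Trh had 576 and 1600 CPM, and no Pyy UMI was found in members of either genotype. H19 had 28.8 and 202 CPM, whereas Meg3 was at 342 and 364 CPM. The cells that the rule picked at E7.5 and E8.5 were unlike. In WT host members Trh was at 1600 CPM at E7.5 and at 183 and 69.8 CPM at E8.5. Levels at E7.5 and E8.5 therefore cannot be read as a change with age. Snrpn was at 250 and 72.1 CPM.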
